A study of Homo sapiens with 3 samples.

Results

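The genes described here are 10 immediate early and AP-1 genes: FOS, FOSB, FOSL1, FOSL2, JUN, JUNB, JUND, EGR1, MYC and DUSP5. They were taken by name, as every probe set whose array annotation gives one of these symbols alone. The rule found all 10 genes, of 11963 named on the array, with 18 probe sets, of 19070 probe sets with 1 gene symbol and 22277 on the array. A probe set is a group of short probes that reads 1 transcript or part of it. JUN had 4 of the sets, FOSL2 and JUND 3 each, EGR1 2, and the other 6 genes 1 each.

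The arrays held RNA from HEK293T, an established line of human embryonic kidney cells with the large T antigen of SV40. All cells were transfected with Fugene HD and received dCas9VP160, a Cas9 protein without nuclease activity joined to the VP160 activation domain. The study asked how expression changes with the guide RNA, and the groups were sgIL1RN1~3, directed to the promoter of IL1RN, sgTetO, directed to the TetO promoter, and sgTetOmut, a mutated form of sgTetO that has no target. Each guide was on 1 array, so no test between guides was possible, no value has a replicate error, and every difference below is a description of these 3 arrays. No untransfected cells were analysed here, so what transfection and dCas9VP160 do in all groups alike cannot be read from them.

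Immediate early genes are transcribed within minutes of a growth factor, stress or calcium signal, without new protein synthesis, and their transcripts are short-lived. FOS and JUN proteins pair through leucine zippers to form AP-1, which binds the sequence TGANTCA. EGR1 is a zinc finger factor and MYC a helix-loop-helix factor that drives growth genes. DUSP5 is a nuclear phosphatase that is induced by ERK and switches it off. In cultured cells such as HEK293T, serum in the medium is a known source of the signal.

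The promoters are shown because many members are known to be switched on together through short sites near their start. Promoters of 7 of the 10 members, from the RefSeq table (GRCh38.p14), were searched. FOSL1, MYC and DUSP5 were not among them, and the search rule itself left out the chromosome of MYC. The 110 bases before the start follow, 5′ to 3′ on the gene's strand, from chr14:75278718-75278827 (plus strand) for FOS, chr19:45467886-45467995 (plus) for FOSB, chr2:28392748-28392857 (plus) for FOSL2, chr1:58784048-58784157 (minus) for JUN, chr19:12791376-12791485 (plus) for JUNB, chr19:18281623-18281732 (minus) for JUND and chr5:138465369-138465478 (plus) for EGR1. Capitals mark TGACGT on either strand, which is the larger part of a cyclic AMP response element, the site TGACATCA, and CArG boxes, the sites of serum response factor.
FOS: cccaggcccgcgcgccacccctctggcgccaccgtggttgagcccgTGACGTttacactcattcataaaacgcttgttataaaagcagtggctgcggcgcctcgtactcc
FOSB: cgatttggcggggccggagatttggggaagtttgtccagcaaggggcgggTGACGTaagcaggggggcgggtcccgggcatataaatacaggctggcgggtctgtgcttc
FOSL2: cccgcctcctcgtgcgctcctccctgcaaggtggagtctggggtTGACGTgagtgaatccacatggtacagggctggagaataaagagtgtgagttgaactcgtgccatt
JUN: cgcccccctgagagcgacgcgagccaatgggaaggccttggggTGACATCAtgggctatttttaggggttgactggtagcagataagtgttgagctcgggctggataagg
JUNB: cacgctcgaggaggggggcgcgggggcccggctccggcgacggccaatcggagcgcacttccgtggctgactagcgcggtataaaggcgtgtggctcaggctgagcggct
JUND: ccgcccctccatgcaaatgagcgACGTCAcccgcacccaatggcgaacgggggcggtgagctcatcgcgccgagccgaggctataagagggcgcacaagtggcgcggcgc
EGR1: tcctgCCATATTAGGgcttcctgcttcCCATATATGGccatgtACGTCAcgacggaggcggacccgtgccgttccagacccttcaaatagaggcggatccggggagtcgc

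Within 250 bases before the start, 5 of the 7 promoters held TGACGT on either strand (FOS, FOSB, FOSL2, JUND and EGR1), against 7.10% of 35116 promoters. In 4 of them, FOS, FOSB, FOSL2 and EGR1, it lay between 55 and 67 bases before the start, a window set after the matches were seen, which holds the site in 0.473% of all promoters. JUN had TGACATCA in the same window, 67 to 60 bases before its start. This sequence was searched for as a site of JUN, so the match was fixed in advance and is no test. Anywhere in the 250 bases, 2.37% of promoters held it, and its share in the window was not counted. JUND also had the full element TGACGTCA, which includes TGACGT, 200 to 193 bases before its start (1.65% of promoters). EGR1 had 2 CArG boxes in the searched bases (1.16% of promoters hold at least 1). None of the 7 had TGANTCA in these 250 bases, against 6.57% of all promoters, nor the E-box CACGTG, which MYC binds (6.34%). JUN, JUNB and JUND held a CCAAT box, CCAAT on either strand, as 32.0% of promoters did. A match is a description of letters. The members' windows were 62.0% to 74.8% G and C, against a median of 58.0% over all promoters.

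Values below are log2 expression values as the authors deposited them, in which a difference of 1 is 2-fold. The 3 columns were close in distribution, with medians over named probe sets of 5.50 on sgIL1RN1~3, 5.46 on sgTetO and 5.49 on sgTetOmut. The highest of 27 Bacillus chip controls, whose transcripts human cells lack, was used as the background level: 3.40 on sgIL1RN1~3, 3.40 on sgTetO and 3.29 on sgTetOmut. The targeted gene IL1RN, by set 212657_s_at, read 7.01 on sgIL1RN1~3 against 2.28 on sgTetO and 2.23 on sgTetOmut. Its set 212659_s_at read 3.80 on sgIL1RN1~3 against 2.88 on sgTetO and 3.29 on sgTetOmut, and its other 3 sets were at background on all arrays. Of the markers of this line, 8 of 8, among them VIM, NEFL and PAX2, were above background on all arrays, while 3 of 4 measured blood and immune markers were at background on all of them and CD14 was above it. CDH5 alone of 3 endothelial markers and APOA1 alone of 2 hepatocyte markers were above background on every array. PAX8, a marker of this line, passed narrowly, at 3.74 on sgIL1RN1~3, 3.74 on sgTetO and 3.92 on sgTetOmut. CDH5 read 3.74 on sgIL1RN1~3, 3.53 on sgTetO and 3.74 on sgTetOmut, and APOA1 4.44 on each. Passing background alone thus does not separate markers of this line from those of other cells. Genes of the interferon response were listed because they were known to move with the sgTetOmut array, so their count is a description and no test. Of 11 measured, 10 were at least 2-fold lower on sgIL1RN1~3 (0.608% of all genes), and 10 on sgTetO (0.524%), than on sgTetOmut. The summed linear value of the 11 genes was 1354 on sgIL1RN1~3, 1872 on sgTetO and 7588 on sgTetOmut. On the sgIL1RN1~3 array the 5′ chip controls of ACTB and GAPDH were higher than on both others.

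Of the 18 member sets, 15 were above background on all 3 arrays, that of FOSL1 was so on sgTetOmut alone, and 2 were on none. By its brightest set (the one with the highest mean over the arrays), 9 of the 10 genes were above background on every array. JUNB was so with the same value on each. MYC, DUSP5 and 2 of the 4 JUN sets were 1.32-fold to 1.56-fold higher on sgIL1RN1~3 than on either other array. FOSB was lower there, at 0.688 of its sgTetO level and 0.737 of its sgTetOmut level. Of the 15 sets above background on all arrays, 9 (60%) were highest on sgIL1RN1~3, 3 on sgTetO and 1 on sgTetOmut, and 2 were tied. Over all 13454 such named sets, 41.3% were highest on sgIL1RN1~3. All 4 JUN sets were among the 9, and sets of 1 gene are not independent of each other. In bulk RNA, fewer cells that express a gene and less RNA per cell cannot be told apart.

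**Figure D1:**
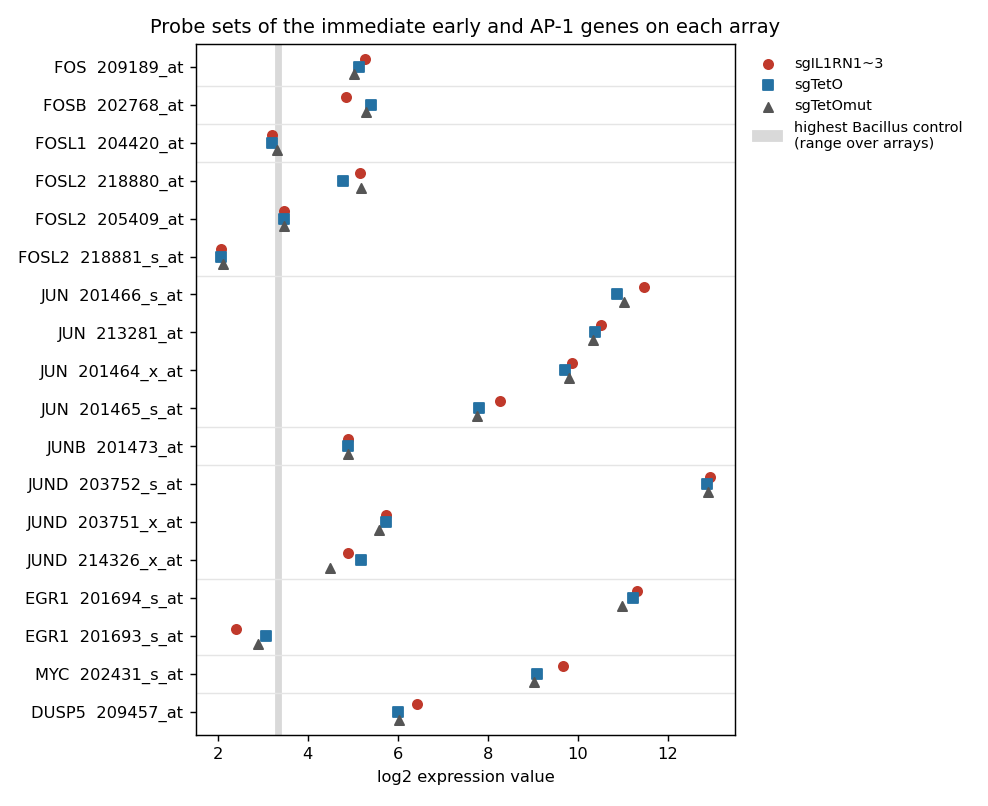
Log2 expression value (horizontal axis) of each of the 18 member probe sets (rows) on the sgIL1RN1~3 (circles), sgTetO (squares) and sgTetOmut (triangles) arrays, 1 array each; the grey band spans the highest Bacillus control values, 3.29 to 3.40. The circles of MYC, DUSP5 and JUN sets 201466_s_at and 201465_s_at stand right of both other symbols, that of FOSB stands left, and the JUNB symbols share 1 value.

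Differences were read against all named sets that were above background on at least 1 of the 2 arrays compared. With a limit of 1.5-fold (0.58 log2 units), 1 of 15 member sets was higher on sgIL1RN1~3 than on sgTetO, where 3.53% of 14014 named sets were, and 0 were lower, where 2.25% were. Against sgTetOmut, 1 of 16 member sets was higher on sgIL1RN1~3, where 2.23% of 14249 named sets were, and 0 were lower, where 2.1% were. Between the TetO guides, 1 of 16 was higher on sgTetO than on sgTetOmut (0.459% of 14167 named sets), and 0 were lower (1.33%). The called sets were JUN 201466_s_at, MYC 202431_s_at and JUND 214326_x_at, a different one each time. No member set reached 2-fold in any of these comparisons, against 0.478% of named sets in either direction between sgIL1RN1~3 and sgTetO, 0.702% between sgIL1RN1~3 and sgTetOmut and 0.459% between sgTetO and sgTetOmut. The comparisons share arrays and are not independent of each other.

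The median difference of the member sets was 0.13 for sgIL1RN1~3 minus sgTetO, where that of all named sets was 0.03. It was 0.17 for sgIL1RN1~3 minus sgTetOmut, against 0.00 for all named sets, and 0.02 for sgTetO minus sgTetOmut, against -0.02. Of the 15 member sets compared with sgTetO, 10 were higher on sgIL1RN1~3, 3 lower and 2 equal, and 54.6% of named sets were higher. Of the 16 compared with sgTetOmut, 11 were higher on sgIL1RN1~3, 3 lower and 2 equal, and 49.5% of named sets were higher. The 4 JUN sets were among the higher ones both times, so these counts are not of independent genes.

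**Figure D2:**
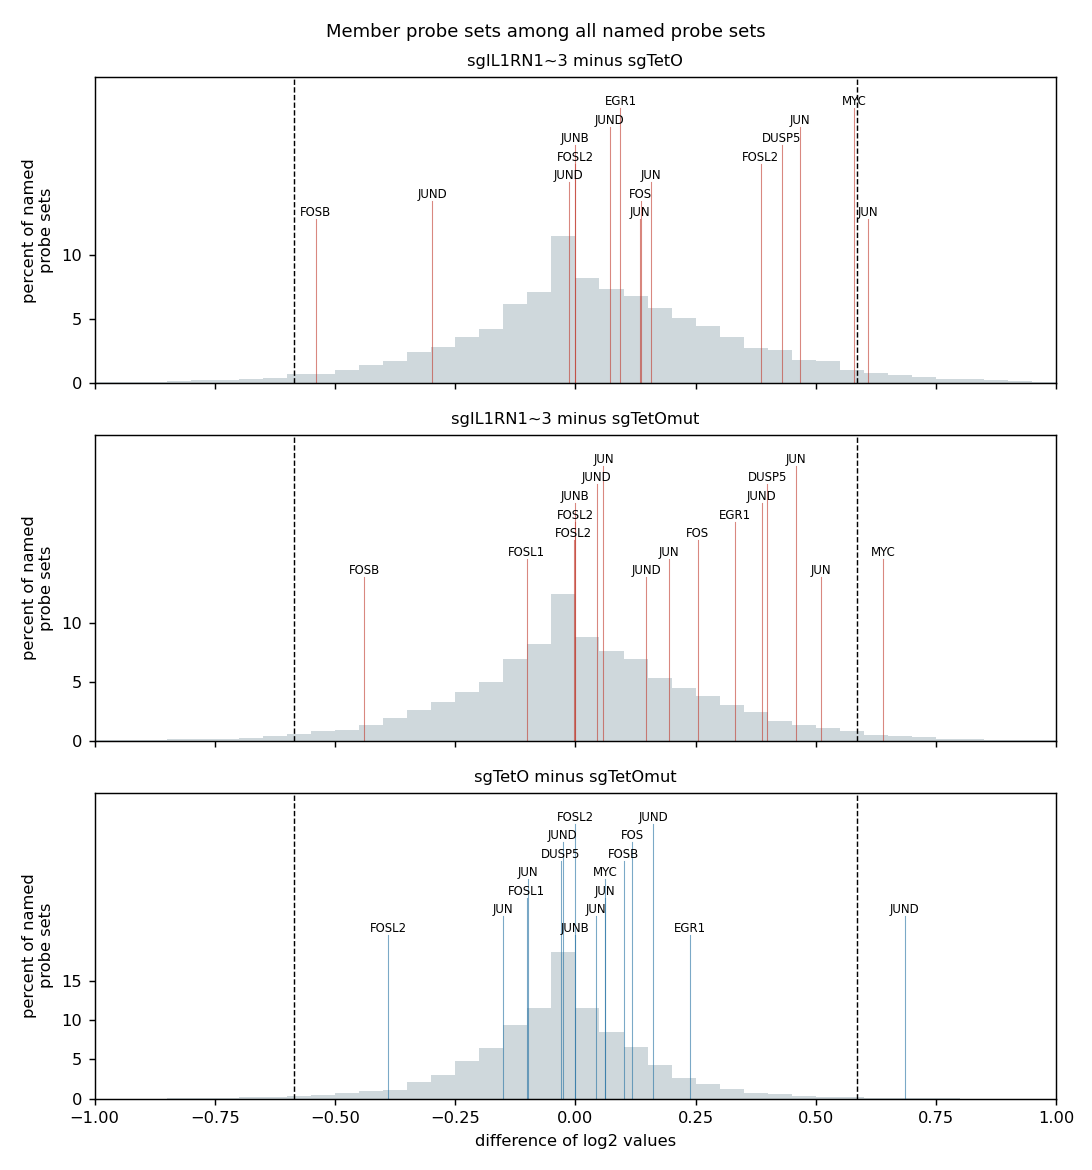
Difference of log2 values (horizontal axis) in each pair of arrays: grey bars give the percent of all named probe sets above background on at least 1 of the 2 arrays, and each labelled line is 1 member set. Dashed lines mark 1.5-fold in either direction, and named sets more than 1 log2 unit apart are not drawn; 1 member line lies beyond the dashed lines in each panel.

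Among the FOS proteins, the partners that need a JUN protein to bind DNA, FOS itself differed little. FOS, by its 1 set 209189_at, read 5.28 on sgIL1RN1~3, 5.14 on sgTetO and 5.02 on sgTetOmut. That is 0.14 above sgTetO and 0.25 above sgTetOmut, and 34.1% of named sets lay as far or further above sgTetO. FOSB, whose shorter splice form accumulates under repeated stimulation in neurons, went the other way. Its set 202768_at read 4.86 on sgIL1RN1~3 against 5.40 on sgTetO and 5.30 on sgTetOmut. It was 0.54 lower than on sgTetO, as were 2.87% of named sets or further, and 0.44 lower than on sgTetOmut (4.62%), while the TetO arrays lay 0.10 apart.

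FOSL1 and FOSL2 encode FRA-1 and FRA-2, which lack the transactivation domain of FOS and are induced later. FOSL1 was at background on sgIL1RN1~3 and sgTetO (3.21 on each), and its 3.31 on sgTetOmut barely passed the control level, so no fold is given. The brightest FOSL2 set, 218880_at, read 5.17 on sgIL1RN1~3, 4.78 on sgTetO and 5.17 on sgTetOmut. Here it was sgTetO that stood apart, 0.39 below sgTetOmut, as 3.95% of named sets were or further. The other FOSL2 sets did not show it: 205409_at held 3.47 on all 3 arrays, just above background, and 218881_s_at was at background throughout, between 2.06 and 2.11.

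JUN can pair with itself as well as with FOS, and its 4 sets split in a pair that differed and a pair that hardly did. Set 201466_s_at read 11.48 on sgIL1RN1~3, 10.87 on sgTetO and 11.02 on sgTetOmut. It was 1.53-fold and 1.37-fold higher than on sgTetO and sgTetOmut. Set 201465_s_at read 8.27 on sgIL1RN1~3, 7.80 on sgTetO and 7.76 on sgTetOmut, which is 1.38-fold and 1.42-fold higher. Both put sgIL1RN1~3 first and the TetO arrays within 0.15 of each other. Set 213281_at, at 10.53 on sgIL1RN1~3, 10.39 on sgTetO and 10.33 on sgTetOmut, was 0.13 and 0.20 higher. Set 201464_x_at, whose suffix marks probes that may also bind other transcripts, read 9.87 on sgIL1RN1~3, 9.71 on sgTetO and 9.81 on sgTetOmut. It was 0.16 and 0.06 higher, in the same direction as the others.

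The mean over the JUN sets was 0.34 above sgTetO and 0.31 above sgTetOmut, under the 1.5-fold limit, which the brightest set passed against sgTetO and not against sgTetOmut. The sets lay 0.47 apart in their difference from sgTetO. Across 2976 genes with more than 1 set above background, the median of this distance was 0.26, and in 23.2% of them it was at least as large as for JUN. The size of the JUN difference thus depends on the set read, while all 4 sets were highest on sgIL1RN1~3.

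JUNB, which can restrain JUN at some promoters, had the same value, 4.90, on all 3 arrays. FOSL2 set 205409_at also held 1 value on all arrays, as did 1.91% of named sets. Values equal to every digit on separate arrays are not read here as steady expression, and their cause was not tested. JUND, the JUN protein that is made steadily rather than induced, was nearly level by its brightest set, 203752_s_at: 12.95 on sgIL1RN1~3, 12.88 on sgTetO and 12.90 on sgTetOmut. The set 203751_x_at, at 5.73 on sgIL1RN1~3, 5.74 on sgTetO and 5.58 on sgTetOmut, spanned 0.16. The set 214326_x_at alone differed, at 4.88 on sgIL1RN1~3, 5.18 on sgTetO and 4.50 on sgTetOmut. It was 1.61-fold higher on sgTetO than on sgTetOmut, a difference that 0.226% of named sets equalled or exceeded. On sgIL1RN1~3 it was 0.30 lower than on sgTetO. The suffix of 214326_x_at marks probes that may also bind other transcripts, and its values lay below the median of named sets on each array. The 3 JUND sets lay 0.71 apart in the difference of sgTetO from sgTetOmut, a distance that 1.65% of genes with several sets reached.

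EGR1 was read by 201694_s_at, at 11.31 on sgIL1RN1~3, 11.22 on sgTetO and 10.98 on sgTetOmut. Here sgTetOmut was the lowest array, by 0.33 from sgIL1RN1~3 and 0.24 from sgTetO, and 10.6% and 6.11% of named sets differed that far or further in that direction. The second set, 201693_s_at, was at background on all arrays, at 2.40 on sgIL1RN1~3, 3.07 on sgTetO and 2.90 on sgTetOmut, and gives no comparison.

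MYC had 1 set, 202431_s_at, with 9.67 on sgIL1RN1~3, 9.09 on sgTetO and 9.03 on sgTetOmut. It was 1.56-fold higher on sgIL1RN1~3 than on sgTetOmut, as 1.61% of named sets were or further, and 1.49-fold higher than on sgTetO (3.64%). The TetO arrays were 0.06 apart. DUSP5, by 209457_at, read 6.44 on sgIL1RN1~3, 6.01 on sgTetO and 6.04 on sgTetOmut. It was 1.35-fold and 1.32-fold higher, with 8.72% and 6.95% of named sets as far or further, and the TetO arrays lay 0.03 apart.

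The sgIL1RN1~3 array also stood apart in the chip controls that read the 5′, middle and 3′ parts of ACTB and GAPDH transcripts, a measure of RNA integrity and of how far labelling reached. The 5′ controls were 0.95 (ACTB) and 0.84 (GAPDH) higher on sgIL1RN1~3 than on sgTetO, and 0.82 and 0.66 higher than on sgTetOmut. The middle controls were 0.69 and 0.58 higher than on sgTetO, and the 3′ controls differed by 0.06 and -0.01. Between sgTetO and sgTetOmut the 5′ controls differed by -0.13 and -0.18. These values move with the same array as MYC, DUSP5 and JUN and are at least as large as their differences at the 5′ end. Their part in these differences was not tested. The part of the interferon genes, which were higher on sgTetOmut, was not tested in any comparison. Between sgIL1RN1~3 and sgTetO the interferon genes had a median difference of -0.24, against 0.02 over all genes. Of the 11, 2 were at least 1.5-fold lower on sgIL1RN1~3, as were 1.84% of all genes by their brightest set.

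**Figure D3:**
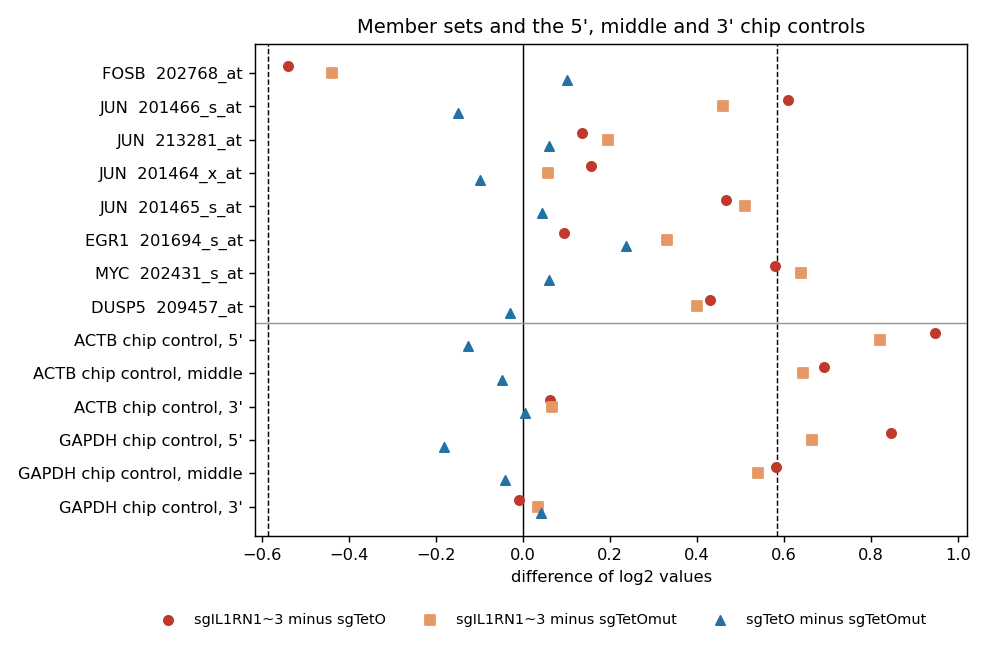
Difference of log2 values (horizontal axis) for member sets of FOSB, JUN, EGR1, MYC and DUSP5 above background on all arrays (top) and for the chip controls of ACTB and GAPDH (bottom), in the 3 pairs of arrays; dashed lines mark 1.5-fold. The 5′ controls of ACTB and GAPDH reach 0.95 and 0.84 on sgIL1RN1~3 minus sgTetO, beyond MYC and all JUN sets, while their 3′ controls lie near 0.

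Genes of the same pathway were read from 8 lists, with the brightest set for each gene. Among all genes so read, 2.24% were at least 1.5-fold higher and 1.84% lower on sgIL1RN1~3 than on sgTetO. Against sgTetOmut the shares were 1.53% and 1.89%, and for sgTetO against sgTetOmut they were 0.375% and 1.2%. The median over all genes was 0.02, 0.00 and -0.02 in these comparisons.

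Other immediate early genes gave no call: 0 of 27 above background were 1.5-fold apart in any pair of arrays. Their median was 0.17 for sgIL1RN1~3 minus sgTetO, 0.05 for sgIL1RN1~3 minus sgTetOmut and -0.09 for sgTetO minus sgTetOmut. Those furthest from the other arrays included KLF6, a zinc finger factor, at 5.21 on sgIL1RN1~3, 4.77 on sgTetO and 4.78 on sgTetOmut. A further KLF6 set, 208960_s_at, was 0.75 higher than on sgTetO and 0.45 higher than on sgTetOmut, while 211610_at was at background. ID1, an inhibitor of helix-loop-helix factors, read 5.51 on sgIL1RN1~3, 5.07 on sgTetO and 5.14 on sgTetOmut. IER3, an NF-kB target, read 7.89 on sgIL1RN1~3, 7.36 on sgTetO and 7.76 on sgTetOmut, so sgTetO was its low array. TRIB1, a pseudokinase, read 9.45 on sgIL1RN1~3, 9.06 on sgTetO and 9.20 on sgTetOmut.

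Among partners that share the leucine zipper, 1 of 16 was 1.5-fold higher on sgIL1RN1~3 than on sgTetO and 0 were lower, and 0 differed in the comparisons with sgTetOmut. The called gene was ATF3, a stress-induced factor that pairs with JUN, at 9.08 on sgIL1RN1~3, 8.42 on sgTetO and 8.75 on sgTetOmut. MAFF, a small MAF protein, read 8.12 on sgIL1RN1~3, 7.73 on sgTetO and 8.23 on sgTetOmut, and NFE2L2, a regulator of antioxidant genes, read 7.85 on sgIL1RN1~3, 7.53 on sgTetO and 7.71 on sgTetOmut. The further MAFF set, 205193_at, was 0.54 higher on sgIL1RN1~3 than on sgTetO and 0.15 higher than on sgTetOmut, where the brightest set was 0.11 lower. The lowest array was sgTetO for ATF3, NFE2L2 and both MAFF sets. The list's median was 0.10 against sgTetO, 0.03 against sgTetOmut and -0.12 between the TetO arrays.

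Phosphatases and feedback inhibitors of the MAP kinases, the group to which DUSP5 belongs, split. DUSP9, a phosphatase of ERK in the cytoplasm, read 8.55 on sgIL1RN1~3, 7.68 on sgTetO and 7.91 on sgTetOmut, and was 0.87 and 0.65 higher. DUSP6, another cytoplasmic ERK phosphatase, read 4.99 on sgIL1RN1~3, 5.45 on sgTetO and 5.67 on sgTetOmut, and was 0.46 and 0.68 lower. Its further set 208892_s_at was 0.15 higher than on sgTetO and 0.42 lower than on sgTetOmut, and 208893_s_at was 0.05 and 0.08 lower. Thus 1 of 10 was called higher in each comparison of sgIL1RN1~3 and DUSP6 was called lower against sgTetOmut. SPRY2, an inhibitor of receptor signalling, read 10.98 on sgIL1RN1~3, 10.54 on sgTetO and 10.68 on sgTetOmut. DUSP10, a phosphatase of the stress kinases, was 0.26 and 0.29 lower on sgIL1RN1~3. The list's medians were 0.10, 0.09 and -0.06.

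The kinases and serum response factors upstream held no call, with 0 of 20 genes 1.5-fold apart in any pair and medians of -0.02, 0.00 and -0.02. ELK4, a partner of serum response factor, read 5.25 on sgIL1RN1~3, 5.82 on sgTetO and 5.68 on sgTetOmut, but its further sets were 0.09 and 0.27 higher than on sgTetO. MAPK3, which encodes ERK1, was 0.51 and 0.39 higher on sgIL1RN1~3. ARAF, a RAF kinase, was 0.31 and 0.54 higher. MAPK10, a JNK, was 0.27 and 0.43 lower, while its further set was 0.16 lower than on sgTetO and 0.29 higher than on sgTetOmut.

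Of the partners and antagonists of MYC, 0 of 12 were called in any pair. Their medians were 0.06, 0.00 and 0.01. MNT, which competes with MYC for MAX, read 9.57 on sgIL1RN1~3, 9.88 on sgTetO and 9.76 on sgTetOmut. MXD3, another such competitor, was 0.20 and 0.27 higher on sgIL1RN1~3, while the sets of MYCL differed. Its brightest set, 214058_at, was 0.47 higher on sgIL1RN1~3 than on sgTetO and 0.01 lower than on sgTetOmut. Its further set 215491_at was 0.33 lower than on sgTetO and 0.59 lower than on sgTetOmut, past the 1.5-fold limit, and does not enter the count by brightest sets. Of the MYC target genes, 3 of 16 were 1.5-fold higher on sgIL1RN1~3 than on sgTetO and 0 were lower, while 0 were called in the comparisons with sgTetOmut. CAD, which starts pyrimidine synthesis, read 7.90 on sgIL1RN1~3, 7.25 on sgTetO and 7.32 on sgTetOmut. SRM, spermidine synthase, read 8.54 on sgIL1RN1~3, 7.95 on sgTetO and 8.05 on sgTetOmut. CDK4, a cell cycle kinase, read 9.97 on sgIL1RN1~3, 9.37 on sgTetO and 9.51 on sgTetOmut. ODC1, the first enzyme of polyamine synthesis, was 0.37 and 0.35 higher. Over the whole list the medians were 0.01, -0.06 and -0.07.

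Target genes of AP-1 had 0 of 12 called in any pair and medians of 0.03, 0.00 and -0.07. VIM, the intermediate filament vimentin, read 10.39 on sgIL1RN1~3, 9.87 on sgTetO and 9.88 on sgTetOmut. TIMP1, a protease inhibitor, was 0.36 and 0.27 higher on sgIL1RN1~3, and FN1, fibronectin, was 0.24 and 0.32 lower. Further FN1 sets above background on all arrays were lower too, while 214701_s_at, above it on sgIL1RN1~3 alone, was 0.28 and 0.56 higher. CD44, a hyaluronan receptor, was 0.14 and 0.34 lower. It was near background, at 3.64 on sgIL1RN1~3, 3.78 on sgTetO and 3.98 on sgTetOmut, and its further sets were at background on all arrays. The metalloproteinases MMP1, MMP3 and MMP9 and the matrix protein gene SPP1 were the 4 measured genes of the list at background on all arrays. Of 6 EGR1 target genes, TGFB1 was called against sgTetOmut, at 4.25 on sgIL1RN1~3, 3.78 on sgTetO and 3.64 on sgTetOmut. The last value was near the background of 3.29 on that array. It also recurred in sets of other genes, such as ZBTB17 203601_s_at on all 3 arrays. The cause of this was not tested, and the call rests on that value. The further TGFB1 set was 0.03 higher on sgIL1RN1~3 than on sgTetO and 0.12 lower than on sgTetOmut. The medians of this list were 0.18, 0.06 and 0.01. PDGFA was 0.22 and 0.25 higher and FLT1 0.33 higher and 0.05 lower on sgIL1RN1~3. PDGFB was at background on sgIL1RN1~3 (3.11) and read 3.53 on both TetO arrays.

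**Figure D4:**
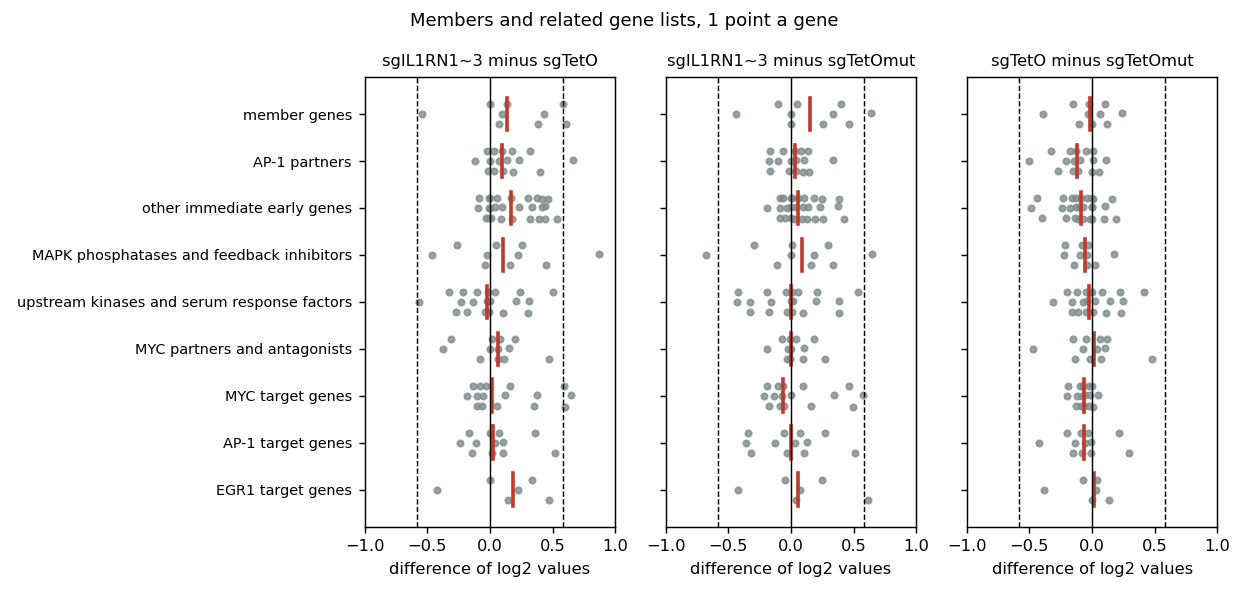
Difference of log2 values (horizontal axis) for the member genes and the 8 related lists (rows) in each pair of arrays; each point is 1 gene by its brightest set, above background on at least 1 of the 2 arrays, and each red bar is the median. Dashed lines mark 1.5-fold; most points of every list lie between them, and the medians lie between -0.12 and 0.18.

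By the brightest set of each gene, the members with the widest range over the arrays were MYC (0.64) and JUN (0.61), while JUND set 214326_x_at, not the brightest of its gene, spanned 0.68. Likeness to them was measured as the largest distance on any of the 3 arrays after each gene was centred on its own mean, over 5978 other genes at or above the median level. The genes most like MYC were SLC16A4 (0.0187), AGBL5 (0.0198) and FXYD6 (0.0202), and 72 genes lay within 0.1. Those most like JUN were DOK5 (0.00461), CDK4 (0.0120) and PRPF6 (0.0150), and 172 genes lay within 0.1. With 3 arrays, many genes share a pattern.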

How the data were processed

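The authors deposited log2 values for 22277 probe sets, 1 column per array. The log2 scale was inferred from their range of 1.36 to 14.5, which is too narrow for linear intensities. The submitters' processing notes name affy, without version, background correction or normalization. Once sorted, the columns differed from their mean by at most 0.104, so a difference is relative to the bulk of genes. GEO's platform annotation named 19070 sets with 1 symbol, 1043 had several and 2164 were not listed. The gene IDs of 19058 were in the GRCh38.p14 table.

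A set was called at 1.5-fold if the higher value passed the highest Bacillus control. No p-value was computed. The counting was tested on simulated data, with noise taken from the TetO arrays and only sets above the median level raised. The median absolute difference was 0.10 between the TetO arrays, 0.16 for sgIL1RN1~3 minus sgTetO and 0.15 for sgIL1RN1~3 minus sgTetOmut. The simulation thus checks the counting and gives no error rate for the sgIL1RN1~3 comparisons. Members and lists were chosen with earlier results of these data known. Named list genes are up to 4 per list furthest on sgIL1RN1~3 from the mean of the other arrays. Python 3.11.15, numpy 2.4.6, pandas 2.3.3, R 4.3.3 and limma 3.58.1 were used. The number of arrays limits the precision.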

Additional observations from a re-analysis of the deposited data

How the results depend on the processing

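Alternatives were quantile and cyclic loess scaling, other minimum levels, 16 added to the linear values, a 2-fold limit and 1 value per gene. The counts of member sets 1.5-fold apart rest on single sets near the limit. For sgIL1RN1~3 minus sgTetO the count of 1 became 0 under quantile scaling (JUN at 0.57), at the 2-fold limit and with the mean of all sets. It became 2 under cyclic loess, where FOSB (-0.59) joined JUN, and 2 with no minimum level, where the background set of EGR1 joined. For sgIL1RN1~3 minus sgTetOmut the count of 1 (MYC) became 0 at the 2-fold limit. For sgTetO minus sgTetOmut the count of 1 (JUND) became 0 with the higher value at or above the median, with 16 added, at the 2-fold limit and with 1 value per gene by the brightest set or the mean. The causes were not tested. The median for sgIL1RN1~3 minus sgTetOmut was 0.33 over the 9 sets at or above the median level, against 0.17; the other medians moved by less than 0.10, the median distance between the TetO arrays, but the one between these arrays (0.02) became -0.01 by the brightest set per gene. Of 120 alternative values for single genes, 106 stayed within that distance and 7 had the opposite sign. With 16 added, FOSB shrank from -0.54 to -0.37 against sgTetO and from -0.44 to -0.30 against sgTetOmut. FOSL2 shrank from 0.39 to 0.26 for sgIL1RN1~3 minus sgTetO. By the mean of all sets, EGR1 was -0.28 against sgTetO and -0.08 against sgTetOmut, because its background set enters, and JUND was -0.08 against sgTetO. No paired analysis was possible because each guide had 1 array.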
